A study of Mus musculus with 2 samples.

Results

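Polycomb repressive complex 2 (PRC2) is the enzyme complex that methylates lysine 27 of histone H3, a mark of genes kept silent during development. Its catalytic subunit, Ezh2 or the related Ezh1, works only when joined to Suz12, Eed and a histone-binding protein such as Rbbp4, and this core takes up accessory subunits that help it to find chromatin. Complexes with a Polycomb-like protein (Mtf2, Phf1 or Phf19) are called PRC2.1 and those with Jarid2 and Aebp2 are called PRC2.2, so that the make-up of PRC2 in a cell depends on which accessory genes it expresses.

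The 10 genes of these subunits were taken as the entries of the deposited expression table whose gene name holds Ezh1, Ezh2, Suz12, Eed, Rbbp4, Mtf2, Phf1, Phf19, Jarid2 or Aebp2. Each of the 10 genes had 1 entry among the 29126 of the table, none shared a row with another gene name, and all 10 carried the status OK, which marks entries with enough reads for quantification. Levels are given as RPKM, reads per kilobase of transcript scaled to the number of mapped reads, a unit that allows levels of genes of different length to be compared.

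The libraries were made by strand-specific mRNA-seq from mouse embryonic fibroblasts (MEFs), 1 from Dnmt1+/+ and 1 from Dnmt1-/- MEFs. Dnmt1 encodes the main enzyme that copies DNA methylation onto new DNA strands, and the Dnmt1-/- MEFs are homozygous for a hypomorphic allele of it. These cells are strongly hypomethylated and viable in culture. MEFs of both genotypes are also homozygous null for Trp53, the gene of the p53 protein, and the strain is given as unknown. The comparison asks how the genes of the PRC2 subunits, and the balance between them, stand in cells with strongly reduced DNA methylation. With 1 library per genotype there is no replicate error and no test, so the values below describe these 2 libraries, and genotype cannot be told apart from other differences between the cell lines.

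The targeted gene went with the labels. Dnmt1 was at 65.2 RPKM in Dnmt1+/+ and at 14.5 RPKM in Dnmt1-/- MEFs, whereas Trp53 RNA was at 18.6 and 19.9 RPKM although both lines are described as null for the gene. Of the 10 fibroblast markers all were above 1 RPKM in Dnmt1+/+ MEFs, and 9 of them were at 18.7 RPKM or more in Dnmt1-/- MEFs. Of these markers 2 were higher by more than 2-fold in Dnmt1-/- MEFs, S100a4 (290 and 1262 RPKM) and Pdgfra (6.95 and 18.7 RPKM), and 3 were lower, Thy1 (4.84 and 0.129 RPKM), Fn1 (664 and 235 RPKM) and Col1a2 (1241 and 476 RPKM). The summed level of the 10 was 6329 and 5005 RPKM. The 4 epithelial, 4 endothelial and 3 pluripotent cell markers were each below 1 RPKM in both libraries, and of the 4 blood cell markers Cd68 alone passed 1 RPKM, at 0.596 in Dnmt1+/+ and 3.63 in Dnmt1-/- MEFs. Xist, the RNA of the inactive X chromosome, was at 0.00648 and 37.0 RPKM, and the Y-linked Ddx3y, Eif2s3y and Kdm5d were at 13.9, 18.8 and 5.90 RPKM in Dnmt1+/+ and listed at 0 in Dnmt1-/- MEFs. The MEF lines therefore differ in their sex chromosome transcripts as well as in Dnmt1.

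A change is given below as the difference in log2(RPKM + 0.1), Dnmt1-/- minus Dnmt1+/+, and a gene is counted as higher or lower when it moved by more than 2-fold on this scale. Over the 11244 genes kept (status OK, a gene symbol and at least 1 RPKM in one library or the other), the median change was -0.14, with quartiles of -0.56 and 0.27. Entries without a symbol (status OK) were examined if between 0.5 and 5 RPKM in Dnmt1+/+ and above 0 in Dnmt1-/- MEFs. A few ratios between the libraries recurred among them. The most frequent, a log2 ratio of -0.129 to 3 decimals, was held by 42 of 3069 such entries, while the median ratio was held by 1. If that ratio marks equal read numbers in the libraries, 1 read counted 0.914 times as much in Dnmt1-/- as in Dnmt1+/+ MEFs. The paper lists more mapped reads for Dnmt1-/- than for Dnmt1+/+ MEFs. Whether the shift of the median comes from scaling was not tested. Changes of the subunit genes are also given relative to the median.

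The letters upstream of 5 subunit genes are shown because CpG dinucleotides are where Dnmt1 acts, and the genes differ in how many they hold. Ezh2 is the more abundant catalytic gene, Phf19 and Aebp2 were the subunit genes with a higher RPKM in Dnmt1-/- MEFs, and Mtf2 and Jarid2 had the most negative log2 changes. The sequences are from RefSeq (GRCm38.p6), cover the 250 bases before the annotated start site, and are written 5′ to 3′ on the strand of the gene. The mm9 positions come from an exact and unique match of each window to NCBIM37, and capitals mark each CpG.
Ezh2, chr6:47545030-47545279, minus strand: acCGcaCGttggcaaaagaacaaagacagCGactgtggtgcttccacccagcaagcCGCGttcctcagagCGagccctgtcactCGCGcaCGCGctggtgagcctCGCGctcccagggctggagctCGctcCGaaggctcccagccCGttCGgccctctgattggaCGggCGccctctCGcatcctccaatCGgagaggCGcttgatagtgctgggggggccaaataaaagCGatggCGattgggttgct
Phf19, chr2:34769497-34769746, minus strand: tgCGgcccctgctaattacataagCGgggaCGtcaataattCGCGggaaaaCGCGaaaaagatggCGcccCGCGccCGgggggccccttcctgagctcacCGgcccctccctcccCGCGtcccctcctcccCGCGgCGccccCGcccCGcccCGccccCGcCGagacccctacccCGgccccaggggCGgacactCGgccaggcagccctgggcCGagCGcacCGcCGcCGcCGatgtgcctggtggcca
Mtf2, chr5:108494443-108494692, plus strand: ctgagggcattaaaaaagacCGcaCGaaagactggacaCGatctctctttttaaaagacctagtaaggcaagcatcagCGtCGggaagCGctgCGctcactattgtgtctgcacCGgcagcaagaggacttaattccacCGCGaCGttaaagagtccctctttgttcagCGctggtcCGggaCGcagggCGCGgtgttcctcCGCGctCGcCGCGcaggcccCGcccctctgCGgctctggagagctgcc
Jarid2, chr13:44825893-44826142, plus strand: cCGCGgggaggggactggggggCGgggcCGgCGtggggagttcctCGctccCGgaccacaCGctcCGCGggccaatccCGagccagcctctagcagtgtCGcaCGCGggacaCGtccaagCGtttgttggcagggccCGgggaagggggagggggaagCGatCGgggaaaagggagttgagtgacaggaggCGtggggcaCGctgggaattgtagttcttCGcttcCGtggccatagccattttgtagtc
Aebp2, chr6:140570934-140571183, plus strand: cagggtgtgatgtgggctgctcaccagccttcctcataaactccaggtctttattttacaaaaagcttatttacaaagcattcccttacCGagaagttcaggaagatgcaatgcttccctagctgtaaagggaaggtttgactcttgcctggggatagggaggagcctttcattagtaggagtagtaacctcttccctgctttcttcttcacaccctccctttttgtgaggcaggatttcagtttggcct

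The stretches of Ezh2, Mtf2 and Jarid2 hold 23 CpG each and that of Phf19 holds 31, whereas that of Aebp2 holds 1. Counted over the whole RefSeq window of 300 bases (250 before the start site and 50 after it), the median of all 32851 mouse windows was 7 CpG, with quartiles of 3 and 20. In 9 of the 10 subunit genes the window nearest to the start of the gene held more CpG than this median, from 17 in Eed and 23 in Ezh1 through 24 in Jarid2 and Phf1, 30 in Mtf2, 31 in Ezh2, 38 in Phf19 and 39 in Rbbp4 to 41 in Suz12. Aebp2 was the exception with 4, and of its other annotated start sites 1 had a window with 21 CpG and 1 had a window with 4. Of the 9 genes above the median CpG count, Phf19 was higher in Dnmt1-/- MEFs and the others were lower by any amount. Of all genes kept, 59.6% were lower by any amount, and the change of Eed became positive when the median change was subtracted. Aebp2, with 4 CpG, was higher. Whether the CpG count bears on the direction of change was not tested, and Aebp2 alone had a low count. DNA methylation at these windows was not analysed here.

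A motif like that bound by E2F factors, which drive genes of S phase, was searched as TTTNNCGC on both strands, and 5.169% of all windows held at least 1 copy. Windows of 3 of the 10 subunit genes held it. Suz12 had TTTCCCGC starting at position -219 from the start site, Ezh2 had TTTGGCGC at position 3, and Phf19 had 2 copies on the opposite strand, read on the strand of the gene as GCGGGAAA at -208 and GCGAAAAA at -198. The motif itself holds a CpG, and these 3 windows hold from 31 to 41 CpG, beside a median of 7 over all windows. The 5.169% is therefore not the share among windows equally rich in CpG, which was not computed. These matches describe the letters alone.

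Neither catalytic gene moved by 2-fold. Ezh2, the methyltransferase of dividing cells, was at 47.9 RPKM in Dnmt1+/+ and 42.8 RPKM in Dnmt1-/- MEFs, a log2 change of -0.16 that lies next to the median of all genes. Ezh1, the related enzyme of lower methyltransferase activity that is more prominent in resting cells, was at 3.78 and 3.08 RPKM, a change of -0.28. Ezh2 thus exceeded Ezh1 by 12.7-fold in Dnmt1+/+ and by 13.9-fold in Dnmt1-/- MEFs, and Ezh1 made up 7.32% and 6.72% of the summed RPKM of the pair. These shares are formed within each library, so that scaling between libraries cannot move them. The Ezh1 value is less certain than that of Ezh2, because an entry without a symbol (status OK) had the same locus boundaries and was at 3.22 RPKM in Dnmt1+/+ and 1.35 RPKM in Dnmt1-/- MEFs. With that entry added to Ezh1, an alternative chosen after seeing the data, its share was 12.8% and 9.38% and its log2 change -0.65.

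The obligate partners of the catalytic subunit stood close to Ezh2. Suz12, which holds the complex together and carries the accessory subunits, was at 24.7 RPKM in Dnmt1+/+ and 21.9 RPKM in Dnmt1-/- MEFs. Eed, the subunit that binds trimethylated H3K27 and stimulates the enzyme, was at 17.6 and 16.6 RPKM. Their log2 changes of -0.17 and -0.08 bracket the median of all genes, and that of Eed turns to 0.06 when the median is subtracted. The proportions within the trio of Ezh2, Suz12 and Eed were nearly the same in the 2 libraries, with 1.94 and 1.95 Ezh2 per Suz12, 2.72 and 2.57 Ezh2 per Eed, and 1.40 and 1.32 Suz12 per Eed, as ratios of RPKM.

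Rbbp4 was the core gene that differed most. This histone-binding WD40 protein, which is shared with other chromatin complexes such as NuRD and CAF-1, was at 49.8 RPKM in Dnmt1+/+ and 33.4 RPKM in Dnmt1-/- MEFs, a log2 change of -0.57. It went from the highest to the second highest level among the 10 genes, and its ratio to Ezh2 went from 1.04 to 0.779. Its close paralog Rbbp7, which can take its place in PRC2, was at 168 and 194 RPKM (log2 change 0.21), above Rbbp4 in both libraries. Rbbp4 shares 1.42% of the 50-base stretches of its transcripts with other places in the genome and Rbbp7 shares 17.0%, so that the value of Rbbp7 is the less certain. The Rbbp7 entry also runs past the annotated end of the gene. Txlng, a coding gene on the opposite strand, overlaps exons of Rbbp7, so the value could hold its reads. The Rbbp4 entry also spans the locus of Sync, a gene on the opposite strand that overlaps exons of Rbbp4. Sync is listed separately at 1.60 and 2.998 RPKM.

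**Figure D1:**
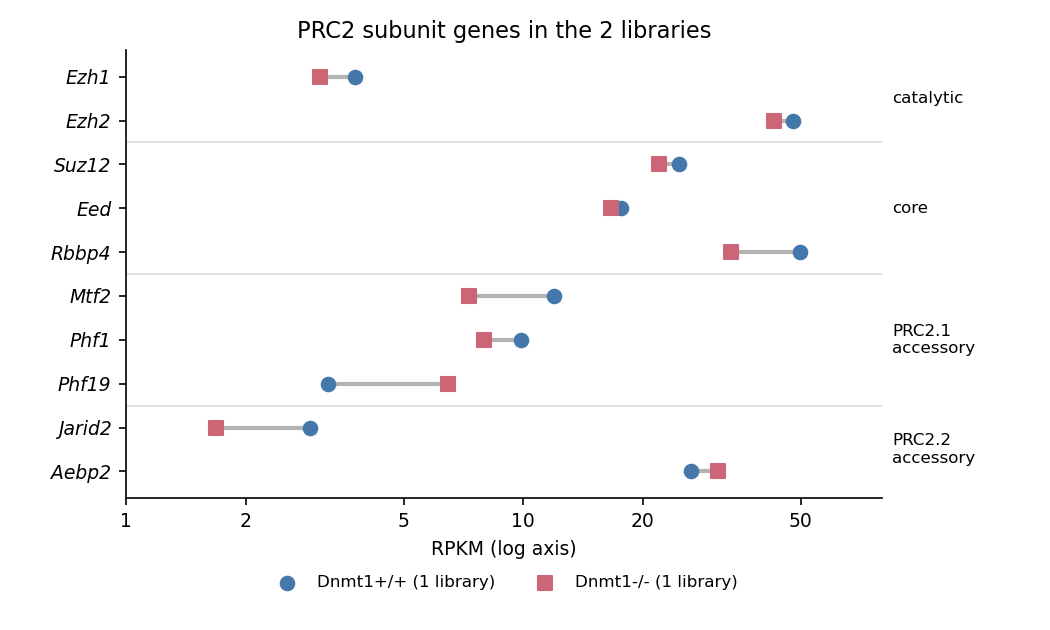
RPKM of the 10 PRC2 subunit genes on a log axis, with a circle for the Dnmt1+/+ library, a square for the Dnmt1-/- library and a grey line joining them. The symbols of Ezh2, Suz12 and Eed nearly touch, those of Phf19, Jarid2, Mtf2 and Rbbp4 are farthest apart, and the square lies to the right of the circle in Phf19 and Aebp2 alone.

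The Polycomb-like genes of PRC2.1 moved in different directions. Phf19 was at 3.23 RPKM in Dnmt1+/+ and 6.45 RPKM in Dnmt1-/- MEFs, a ratio of 1.996 and a log2 change of 0.98, which is just short of 2-fold on the scale used. It passed 2-fold when the median of all genes was subtracted (1.12) or when the upper quartiles of the libraries were set equal (1.02). Of all genes kept, 8.67% had a larger increase than Phf19. Mtf2, a Polycomb-like protein that binds unmethylated CpG-rich DNA and brings PRC2 to it, was at 11.96 and 7.31 RPKM, a log2 change of -0.70. Phf1, the third of these proteins, was at 9.86 and 7.96 RPKM, a change of -0.31. All 3 proteins carry a Tudor domain, through which they can bind methylated histone H3.

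The summed RPKM of the 3 Polycomb-like genes was 25.05 in Dnmt1+/+ and 21.7 in Dnmt1-/- MEFs, while the share of each in that sum shifted. Mtf2 held 47.7% in Dnmt1+/+ and 33.7% in Dnmt1-/- MEFs, and Phf19 held 12.9% and 29.7%. Phf1 held 39.4% and 36.6%, which made it the most abundant of the 3 in Dnmt1-/- MEFs in place of Mtf2. The ratio of Mtf2 to Phf19 was 3.70 in Dnmt1+/+ and 1.13 in Dnmt1-/- MEFs, the largest shift between any pair of genes for which a ratio was formed here. The spread between libraries of 1 genotype is unknown, and whether shifts of this size occur between MEF lines of the same genotype could not be examined.

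Of the PRC2.2 genes, Jarid2 was the lower and Aebp2 the higher in Dnmt1-/- MEFs. Jarid2, a catalytically inactive member of the Jumonji family that helps PRC2 to bind and start on new sites, had the lowest level of the 10 genes in both libraries, at 2.90 RPKM in Dnmt1+/+ and 1.68 RPKM in Dnmt1-/- MEFs. Its log2 change of -0.75 was the most negative of the 10 with a pseudocount of 0.1, though not with one of 1 (-0.54, beside -0.64 for Mtf2 and -0.56 for Rbbp4), and 17.3% of all genes kept had a larger decrease. Aebp2, a zinc finger protein that stabilises the complex, was at 26.4 and 31.0 RPKM, a change of 0.23 that became 0.37 with the median subtracted. Jarid2 made up 9.88% of the summed RPKM of the pair in Dnmt1+/+ and 5.15% in Dnmt1-/- MEFs, and Aebp2 exceeded Jarid2 by 9.12-fold and 18.4-fold.

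**Figure D2:**
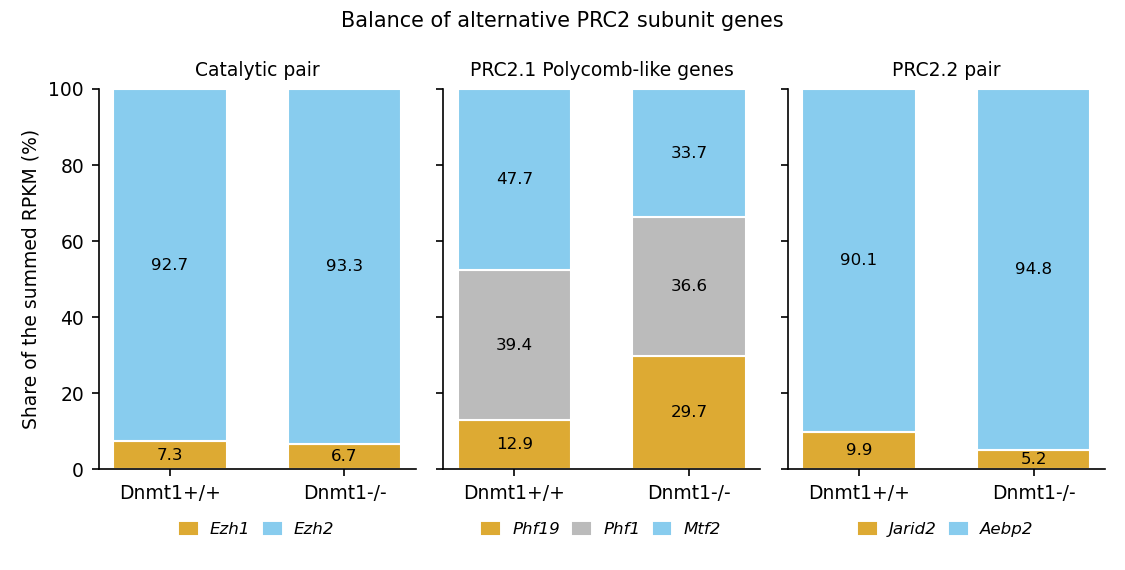
Share of each gene in the summed RPKM of its group, in percent, for the Ezh1 and Ezh2 pair, the 3 Polycomb-like genes and the Jarid2 and Aebp2 pair, with 1 stacked bar per library. Ezh1 holds 7.32% and 6.72% of the catalytic pair (12.8% and 9.38% with the entry at its locus added, not drawn), while Phf19 goes from 12.9% to 29.7% of the Polycomb-like sum and Jarid2 from 9.88% to 5.15% of its pair.

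Taking the accessory genes as a whole, opposite changes offset each other. The summed RPKM of the 5 accessory genes was 54.4 in each library, whereas that of Ezh1, Ezh2, Suz12, Eed and Rbbp4 was 143.7 in Dnmt1+/+ and 117.9 in Dnmt1-/- MEFs. The ratio of accessory to core RPKM was accordingly 0.379 and 0.462. Without Rbbp4, which serves other complexes too, the core sums were 93.9 and 84.5 RPKM and the ratio was 0.579 and 0.644. Rbbp7, the paralog that can replace Rbbp4, is in neither core sum. It was at 168 RPKM in Dnmt1+/+ and 194 RPKM in Dnmt1-/- MEFs. The rise of the ratio rests on leaving Rbbp7 out, since it does not hold when Rbbp7 is counted as core. Jarid2 and Aebp2 together held 54.0% of the accessory sum in Dnmt1+/+ and 60.1% in Dnmt1-/- MEFs, and nearly all of it was Aebp2. RNA levels do not give the amounts of the proteins or of the assembled complexes. For protein, the paper reports immunoblots in which core PRC2 subunits were not decreased in Dnmt1-/- MEFs. In a library of many cells a lower share of expressing cells and less RNA per cell cannot be told apart.

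Counted together, 0 of the 10 subunit genes were higher by more than 2-fold and 0 were lower, beside 8.47% of all genes kept that were higher and 10.9% that were lower. After subtraction of the median, 1 of the 10 was higher, namely Phf19, beside 9.71% of all genes. At 1.5-fold, 1 of the 10 was higher (Phf19) beside 14.1% of all genes, and 2 were lower (Mtf2 and Jarid2) beside 23.7%. Rbbp4 was just inside this threshold, with a Dnmt1+/+ level 1.49 times that in Dnmt1-/- MEFs. By any amount, 8 of the 10 were lower beside 59.6% of all genes, and the median change of the 10 was -0.23 beside -0.14 for all genes. With the entry at the Ezh1 locus added to Ezh1, 3 of the 10 are lower at 1.5-fold, beside the same 23.7% of all genes. With 10 genes these counts are too small to be set apart from the shares of all genes. The spread differed between the classes, with the 5 catalytic and core genes between -0.57 and -0.08 and the 5 accessory genes between -0.75 and 0.98. Of the former, 4 were within 0.5 of 0 and of the latter 2, beside 56.0% of all genes. With the added Ezh1 entry the former run from -0.65 and 3 of them are within 0.5 of 0. With 5 genes in each class this is a description.

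**Figure D3:**
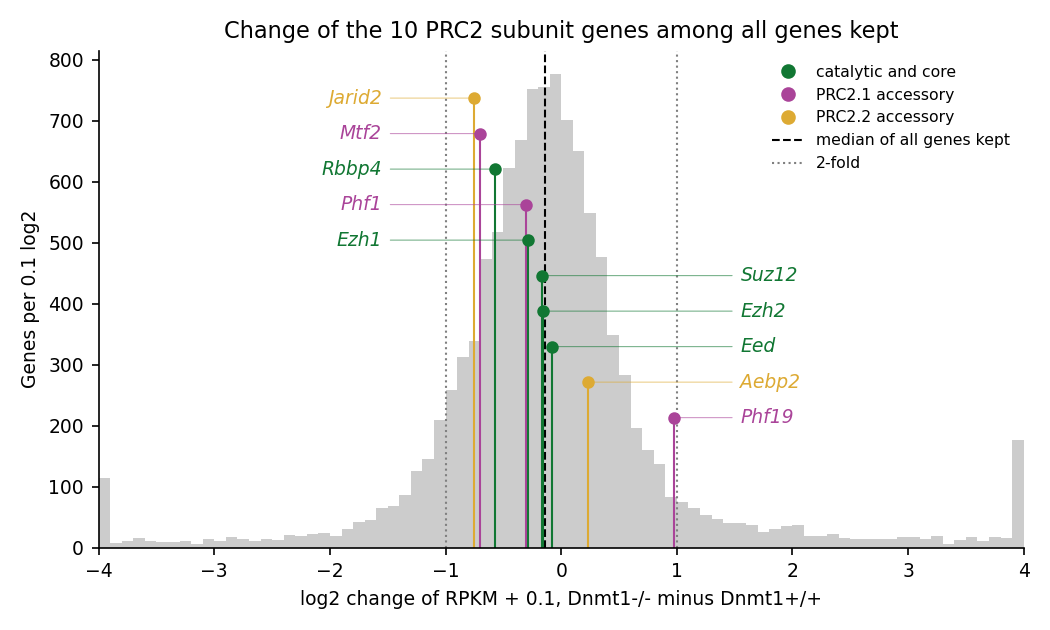
Histogram of the log2 change of RPKM + 0.1 (Dnmt1-/- minus Dnmt1+/+) over the 11244 genes kept, in bins of 0.1 with genes beyond the axis put in the end bins, and coloured stems at the change of each PRC2 subunit gene. All 10 stems stand between the dotted 2-fold lines, Ezh2, Suz12 and Eed at the dashed median of -0.14, and Phf19 at 0.98 beside the upper line.

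In the mm9 annotation (GENCODE vM1) the catalytic and core genes lie on 4 chromosomes, Ezh1 at chr11:101052429-101087777, Ezh2 at chr6:47480273-47545340, Suz12 at chr11:79806608-79847625, Eed at chr7:97103166-97129493 and Rbbp4 at chr4:128984344-129012614. Of the accessory genes, Mtf2 lies at chr5:108494693-108538023, Phf1 at chr17:27070072-27074835, Phf19 at chr2:34749277-34769546, Jarid2 at chr13:44824843-45017012 and Aebp2 at chr6:140570970-140626993. None of the 10 is on a sex chromosome, whose transcripts differ between the libraries, whereas Rbbp7 is on the X. Exons of Mtf2 overlap the span of Tmed5, a coding gene on the opposite strand. Exons of Phf19, Ezh2 and Suz12 overlap the spans of noncoding RNA genes on the opposite strand (Gm13448, Gm17629 and Gm16706). Overlap with the exons of these neighbours was not examined. The sources do not say if strand was considered in counting. The values of Mtf2, Phf19, Ezh2 and Suz12 could therefore hold reads of their neighbours. At most 2.93% of the 50-base stretches of any of the 10 genes (in Suz12) occur elsewhere in the genome, and none of those of Ezh1, Ezh2, Eed, Phf1 and Phf19.

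Among further PRC2 partners, Lcorl was past 2-fold. Lcorl, which encodes a PRC2.1-associated protein, was at 8.04 RPKM in Dnmt1+/+ and 2.99 RPKM in Dnmt1-/- MEFs, a log2 change of -1.40, and its paralog Lcor was at 3.88 and 3.57 RPKM. Ezhip, an inhibitor of PRC2 listed under its older name AU022751, was listed at 0 and at 0.0946 RPKM. No entry was found for Epop, which encodes a further PRC2.1 partner. Of the 5 listed partners, 4 had an entry and 3 passed the filter on low values. Of these, 0 were higher by more than 2-fold and 1 was lower, beside 8.47% and 10.9% of all genes.

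Enzymes that remove or oppose the PRC2 mark were set beside the subunit genes. Kdm6a, an X-linked demethylase of H3K27, was at 5.06 RPKM in Dnmt1+/+ and 3.24 RPKM in Dnmt1-/- MEFs, and Kdm6b, an inducible one, was at 7.44 and 5.64 RPKM. Uty, the Y-linked relative of Kdm6a, was at 3.71 and 0.0135 RPKM, next to the other Y-linked genes that were listed at 0 in Dnmt1-/- MEFs. Of 6 enzymes that place marks opposed to H3K27 methylation (Nsd1, Whsc1, Setd2, Ash1l, Crebbp and Ep300), 0 were past 2-fold in either direction, and their median change was -0.31 beside -0.14 for all genes. Of the 3 demethylases 1 was lower by more than 2-fold (Uty), beside 10.9% of all genes.

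A subset of PRC1 complexes reads the PRC2 mark, through Cbx subunits. Of 22 listed PRC1 genes 20 passed the filter, of which 0 were higher, 3 were lower and 17 were within 2-fold, with a median change of -0.29. Of all genes 8.47% were higher, 10.9% were lower and the median was -0.14. Whether PRC1 genes differ in this from PRC2 genes was not tested. The lower genes were Scmh1, at 16.8 RPKM in Dnmt1+/+ and 6.45 RPKM in Dnmt1-/- MEFs, Bmi1 at 18.8 and 7.41 RPKM, and Cbx2 at 5.11 and 2.04 RPKM. Bmi1 is a repressor of the Ink4 locus, a target shared by PRC1 and PRC2. Both genes of that locus were lower as well, Cdkn2a at 328 and 137 RPKM (log2 change -1.26) and Cdkn2b at 65.9 and 18.4 RPKM (-1.84). Whether any subunit gene bears on these levels was not tested.

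Ezh2 and other PRC2 genes are known targets of E2F in dividing cells, so genes of the E2F and Rb family and of S phase were set beside them. Of 14 E2F and Rb entries that passed the filter, 0 were higher and 2 were lower, E2f2 at 1.13 RPKM in Dnmt1+/+ and 0.402 RPKM in Dnmt1-/- MEFs and 1 of the 2 entries of Rb1 at 1.31 and 0.520 RPKM, beside 10.9% of all genes that were lower. Of 21 entries of S phase and proliferation genes, 1 was higher, Rrm2 of ribonucleotide reductase at 44.9 and 99.4 RPKM, beside 8.47% of all genes, and 0 were lower. Their median change was 0.19, on the other side of 0 from those of the 10 PRC2 genes (-0.23), of Ezh2 (-0.16) and of all genes (-0.14). The counts of these lists past 2-fold were the same when the median was subtracted.

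**Figure D4:**
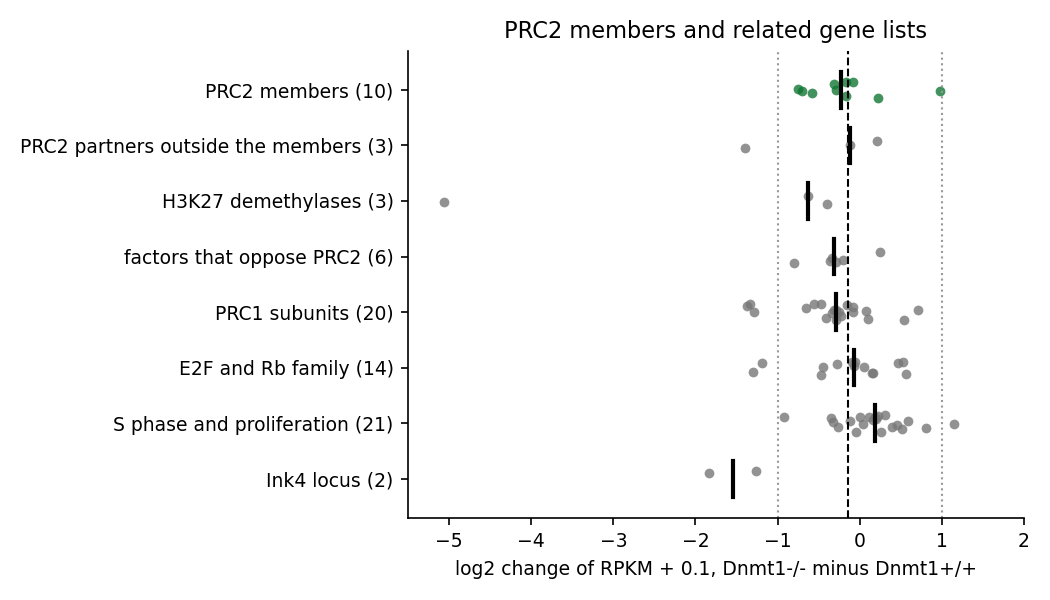
Log2 change of RPKM + 0.1 (Dnmt1-/- minus Dnmt1+/+) of each gene that passed the filter, for the 10 PRC2 subunit genes in green and 7 related lists in grey, with the number of entries in brackets, a black bar at each median, a dashed line at the median of all genes and dotted lines at 2-fold. The 10 PRC2 genes lie between the 2-fold lines around a median of -0.23, the S phase list has a median of 0.19, and Uty is the point farthest to the left.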

How the data were processed

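The authors aligned single-end reads of 50 bp against mm9 (TopHat), built transcripts from them (Cufflinks) and derived RPKM values (Cuffdiff). They deposited 1 RPKM column per library with a status per entry, and no counts. Versions, scaling between libraries and use of strand are not given in the sources used here. The paper gives the mapped reads of each library. The reads behind each value were not worked out here, so no interval or detection limit is given.

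The 10 members and the related lists were chosen with earlier results of these data known. Genes were kept with status OK, a symbol and at least 1 RPKM in either library. A pseudocount of 0.1 was added before log2, which understates changes of low genes. A gene was counted as changed past 2-fold. With 1 library per genotype no p-value was computed. Named were all member entries, genes of the other lists past 2-fold, Rbbp7, the H3K27 demethylases, Cdkn2a and Dnmt1. Other genes named, such as Lcor and Sync, were picked with their values in view. Promoters were matched to NCBIM37 by exact search. Python 3.11.15 was used with numpy 2.4.6 and pandas 2.3.3.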

Additional observations from a re-analysis of the deposited data

How the results depend on the processing

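No subunit gene that was past 2-fold in one setting had the opposite direction in another. With the median change subtracted, 1 PRC2 gene was higher by more than 2-fold (Phf19) and the median of the 10 was -0.0863, and with upper quartiles set equal 1 was higher (Phf19). The sign of Eed changed when the median was subtracted (0.06), and that of no other subunit gene did under any alternative. At 1.5-fold, 1 PRC2 gene was higher and 2 were lower, and of all genes 1580 were higher and 2670 lower, against 952 and 1225 at 2-fold. A pseudocount of 1 left 801 genes lower, and no filter on RPKM gave 1475 higher. Leaving Rbbp4 out of the core moved the accessory to core ratio to 0.579 in Dnmt1+/+ MEFs, and adding the entry without a symbol at the Ezh1 locus, chosen after seeing the data, moved the Ezh1 share there to 12.8%. Shares of the Polycomb-like genes and of Jarid2 did not move, since every gene had 1 entry with status OK. No paired analysis was possible because the labels carry no replicate numbers and each genotype has 1 library, and for the same reason no replicate could be left out. Low levels may limit Jarid2, Phf19 and Ezh1 most, though the read numbers behind them were not worked out. Without replicates the spread of every gene is unknown.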
